A study of Mus musculus with 24 samples.

Results

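The nuclear genes for subunits of complexes I to IV of the mitochondrial respiratory chain were followed in mouse liver during suppression of Keap1 by siRNA. Members were taken by symbol, as the genes whose names begin with Ndufa, Ndufb, Ndufc, Ndufs or Ndufv, Sdha to Sdhd, Uqcr, Cox4i, Cox5, Cox6, Cox7 or Cox8, without pseudogenes and the Ndufaf assembly factors. This gave 65 of the 18193 genes with a probe set that names a single gene, namely 36 genes of complex I, 4 of complex II, 8 of complex III and 17 of complex IV. Of these, 8 are known as isoforms of other tissues or conditions (Cox4i2, Cox6a2, Cox6b2, Cox7a1, Cox7b2, Cox8b, Cox8c and Ndufa4l2), which leaves 57. A further 6 symbols (Ndufa11, Ndufa11b, Ndufb4b, Ndufb4c, Ndufs6 and Ndufs6b) occur on probe sets with more than a single gene name and were left out.

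The study asked what lasting activation of the transcription factor Nrf2 in the liver does to energy metabolism, and Keap1 encodes the protein that holds Nrf2 back. All mice were male C57BL6/J, 8 weeks old at the start, and fed a western diet with 6% sucrose in the drinking water. They received weekly tail vein injections of 1 mg per kg of chemically modified siRNA in lipid nanoparticles for 7 weeks, either a scrambled siRNA (siControl) or one of a pair of siRNAs against Keap1 (siKeap1-1 and siKeap1-2). Each group has 8 arrays of whole liver RNA, 1 per mouse. The methods state that each group held fed and fasted mice, but the labels do not say which array is which, so feeding stays within the spread of a group. The nanoparticles reach mainly hepatocytes, and the arrays average over all cells of the liver. In such samples, fewer cells of a type and less RNA per cell cannot be told apart.

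The respiratory chain passes electrons from NADH (complex I) and succinate (complex II) through ubiquinone, complex III and cytochrome c to oxygen at complex IV. Complexes I, III and IV move protons across the inner mitochondrial membrane, and ATP synthase uses the resulting gradient. Hepatocytes are rich in mitochondria, and nuclear genes for subunits are known to be controlled by nuclear respiratory factor 1, by GABP (nuclear respiratory factor 2) and by the coactivator that Ppargc1a encodes.

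Values are log2 signals of a gene's brightest single-gene probe set, and differences are between group means on the log2 scale. A gene is called changed where limma gave an adjusted p under 0.05 over all 45037 probe sets tested. The p-values measure the spread between these 24 mice. The range of Keap1 was 9.33 to 10.03 in the siControl group, 7.21 to 7.93 in the siKeap1-1 group and 8.03 to 8.59 in the siKeap1-2 group, with no overlap. Keap1 fell by 2.13 under siKeap1-1 (standard error 0.11, limma adjusted p = 2.28e-12) and fell by 1.36 under siKeap1-2 (standard error 0.11, limma adjusted p = 1.89e-08). Nqo1, a quinone reductase and target of Nrf2, rose by 2.22 and 1.91. For Keap1 an exact permutation test gave p = 0.000155 with either siRNA, the smallest value that 12870 splits allow.

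The hepatocyte markers were bright on all arrays (Alb had group means of 14.77 to 14.80), and 0 of 9 were called with either siRNA. Their summed level was 17.62 to 17.67 in siControl, 17.53 to 17.61 in siKeap1-1 and 17.57 to 17.63 in siKeap1-2, so that siControl lay above siKeap1-1 on every array. Of 6 Kupffer cell markers, Vsig4 and Timd4 fell under siKeap1-1 (-0.60 and -1.52), and under siKeap1-2 Timd4 fell (-1.16) and Marco rose (1.49). Their summed level was 12.78 to 13.62, 12.56 to 13.52 and 12.84 to 13.94 in the same order. Of 5 bile duct markers Sox9 rose under both siRNAs (0.87 and 0.96), while the median difference of the list was 0.026 and -0.33. With siKeap1-2, 2 of these 5 were lower at an unadjusted limma p under 0.05. The summed level of the 5 was 8.90 to 9.69 in siControl, 9.44 to 9.84 in siKeap1-1 and 9.37 to 9.94 in siKeap1-2. Of 6 endothelial markers Cdh5 fell under siKeap1-2 (-0.32). Of the markers of stellate cells (6), lymphocytes (5) and erythroid cells (4), 0 were called. The part of these cell types in the results below was not tested.

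The siControl arrays were not alike. The manufacturer's probe set for 18S ribosomal RNA gave 10.34 to 10.77 on siControl replicates 1 to 3 and 8.86 to 9.54 on replicates 4 to 8, against 10.17 to 11.43 in the siKeap1-1 group and 10.45 to 11.12 in the siKeap1-2 group. Within siKeap1-1 the same numbers divide the arrays in reverse, at 10.17 to 10.44 for replicates 1 to 3 and 11.17 to 11.43 for replicates 4 to 8. For siKeap1-1 it stood 1.23 above siControl (p = 0.00435, two-sided exact permutation test), and for siKeap1-2 it stood 1.18 above (p = 0.00155, same exact test). The signal of the Gapdh probe set at the 3′ end exceeded that at the 5′ end by 1.33 to 1.47 on siControl replicates 4 to 8 and by 1.14 to 1.198 on replicates 1 to 3. Results that rest on these arrays are given below with either set of controls.

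Among the 65 genes, 2 were called lower and 0 higher with siKeap1-1, or 3.08%, where 9.49% of all genes were called and 4.67% were called lower. With siKeap1-2, 1 was called lower and 0 higher, or 1.54%, where 6.6% of all genes were called and 3.75% were called lower. Both genes belong to complex IV. They are Cox7a1 and Cox7c. Cox7a1 encodes the heart and muscle form of subunit 7a of cytochrome c oxidase, and Cox7c encodes another small subunit of that enzyme. Their probe sets have mean signals of 7.11 and 8.95, while 54 members have a mean signal of 11.5 or more. At an unadjusted p under 0.05, limma gave 3 members higher and 3 lower with siKeap1-1, or 9.23% of members against 24.5% of all genes. With siKeap1-2 it gave 2 higher and 8 lower, or 15.4% against 21.9%. Between the siRNAs, 0 members were called and 0 had an unadjusted p under 0.05, where 0.242% of all genes were called.

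**Figure D1:**
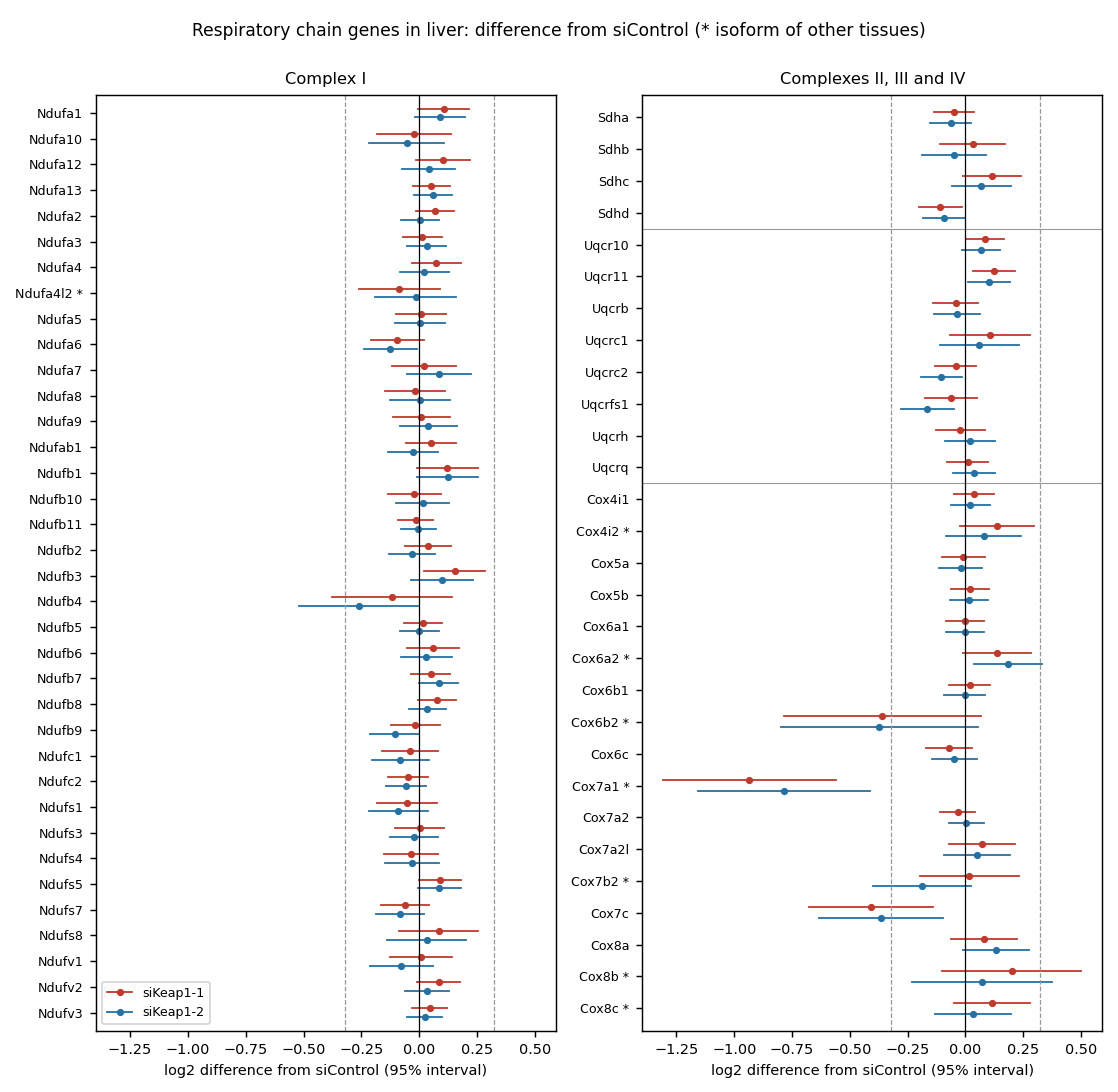
Log2 difference from siControl of each of the 65 genes with its 95% interval from limma (red, siKeap1-1; blue, siKeap1-2; n = 8 mice per group), in alphabetical order within complex I (left) and complexes II, III and IV (right, from top to bottom). Dashed lines mark a fold of 1.25 in either direction; 60 intervals with siKeap1-1 and 58 with siKeap1-2 lie between them, and Cox7a1 stands farthest to the left with both siRNAs.

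The promoters of both genes are shown because these genes carry the calls. RefSeq sequence of the build GRCm38.p6 is given for the 250 bases before the start of each gene, at chr7:30183921-30184170 on the plus strand for Cox7a1 and at chr13:86046796-86047045 on the minus strand for Cox7c. Neither window holds a match on either strand to CGCANGCG (the core of the site of nuclear respiratory factor 1), CCGGAAGT (GABP) or TGACNNNGC (the core of the antioxidant response element, to which Nrf2 binds), so no letters are set in capitals.
Cox7a1: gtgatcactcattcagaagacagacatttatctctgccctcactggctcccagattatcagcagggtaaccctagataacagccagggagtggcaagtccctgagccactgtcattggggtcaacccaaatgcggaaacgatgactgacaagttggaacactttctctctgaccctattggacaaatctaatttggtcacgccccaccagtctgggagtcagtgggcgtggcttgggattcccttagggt
Cox7c: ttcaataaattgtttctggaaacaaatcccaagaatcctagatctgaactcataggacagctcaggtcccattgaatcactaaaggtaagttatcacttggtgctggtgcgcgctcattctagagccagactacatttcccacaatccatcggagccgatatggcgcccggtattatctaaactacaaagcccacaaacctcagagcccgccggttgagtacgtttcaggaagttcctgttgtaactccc

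Windows from 250 bases before to 50 after the start were given for 52 of the 65 genes. The core of nuclear respiratory factor 1 was found in 14 of them (26.9%), against 9.22% of the windows of all 27025 genes in the table. GABP letters were found in 4 (7.69% against 4.31%). The antioxidant response element core was found in 7 (13.5% against 14%), namely Cox5b, Ndufa1, Ndufa7, Ndufa9, Ndufa10, Ndufs5 and Ndufv2. Of these 7, 0 were called with either siRNA, where 9.49% and 6.6% of all genes were called. So few genes cannot be set apart from that share. A match describes letters in a window and does not show binding.

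Complex I, the entry point for electrons from NADH, had 0 of 36 genes called with either siRNA. Differences ranged from -0.12 to 0.15 for siKeap1-1 (median 0.015) and from -0.26 to 0.12 for siKeap1-2 (median 0.0034). Ndufv1, which encodes the subunit that binds NADH and flavin, ran from 13.0004 to 13.37 in siControl (median 13.32), 13.08 to 13.36 in siKeap1-1 (median 13.27) and 13.0049 to 13.37 in siKeap1-2 (median 13.16). The groups overlapped almost fully, and the differences were 0.0070 (standard error 0.066) and -0.078 (standard error 0.066). Ndufs1, for the largest of the iron-sulfur subunits, ran from 12.30 to 12.64 in siControl, 12.18 to 12.58 in siKeap1-1 and 12.30 to 12.56 in siKeap1-2. Its differences were -0.052 and -0.090 (standard error 0.063 for both; limma adjusted p = 0.68 and 0.454). Ndufv2, Ndufs3, Ndufs7 and Ndufs8 encode further subunits of the arms that carry electrons, and their differences ranged from -0.063 to 0.085 for siKeap1-1 and from -0.083 to 0.034 for siKeap1-2.

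Among the accessory subunits of complex I, Ndufb3 had the largest positive difference with siKeap1-1, at 0.15 (standard error 0.064, limma adjusted p = 0.144), with siControl from 12.63 to 12.89 and siKeap1-1 from 12.65 to 13.02. Ndufa6 had a difference of -0.13 with siKeap1-2 (limma adjusted p = 0.197). Ndufb4 had the widest intervals of complex I, and it is measured at a single-gene probe set with a mean signal of 3.58. Ndufa4, now counted as a subunit of complex IV, stayed between 13.19 and 13.56 on all arrays, with differences of 0.074 and 0.021. Ndufa4l2, its paralog known for induction by hypoxia, differed by -0.087 and -0.016.

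Complex II, which also belongs to the tricarboxylic acid cycle as succinate dehydrogenase, had 0 of 4 genes called. Sdha, for the flavoprotein that oxidizes succinate, ran from 13.96 to 14.05 in siControl, 13.87 to 14.05 in siKeap1-1 and 13.84 to 14.08 in siKeap1-2. Sdhb, for the iron-sulfur subunit, ran from 12.91 to 13.34, from 13.03 to 13.35 and from 12.84 to 13.23 in the same order. The groups overlapped for both genes. The differences were -0.049 and -0.064 for Sdha (standard error 0.043) and 0.031 and -0.050 for Sdhb (standard error 0.068). The membrane anchors differed from each other in sign. Sdhc lay at 0.11 and 0.068 above siControl (standard error 0.061, limma adjusted p = 0.272 and 0.585). Sdhd lay at -0.11 and -0.094 (standard error 0.044, limma adjusted p = 0.136 and 0.231), with siControl from 12.73 to 12.89, siKeap1-1 from 12.53 to 12.76 and siKeap1-2 from 12.61 to 12.78. Neither anchor passed the test.

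Complex III, which hands electrons from ubiquinol to cytochrome c, had 0 of 8 genes called. Uqcrfs1, for the Rieske iron-sulfur protein, ran from 12.03 to 12.27 in siControl (median 12.21), 11.96 to 12.21 in siKeap1-1 (median 12.15) and 11.91 to 12.27 in siKeap1-2 (median 12.04). With siKeap1-2, 7 of 8 arrays lay below 7 of the 8 siControl arrays, and the difference of -0.16 did not pass (standard error 0.055, limma adjusted p = 0.0746). It passed in 6 of 41 alternative settings. These include the looser threshold of an unadjusted p under 0.05, which its main limma p of 0.00604 already met. It also passed without siKeap1-2 replicate 5 (-0.20, limma adjusted p = 0.0234) and without siControl replicate 1 (-0.19, limma adjusted p = 0.038). Both of these arrays stood apart from the rest of their group, on the side that shrinks the difference. Uqcr11, a small accessory subunit, had the largest positive differences of the complex, 0.12 and 0.10 (standard error 0.044, limma adjusted p = 0.0871 and 0.187), with siControl from 12.98 to 13.10, siKeap1-1 from 13.04 to 13.27 and siKeap1-2 from 13.06 to 13.21. Uqcrc1 and Uqcrc2, for the core proteins, differed by 0.11 and -0.042 under siKeap1-1, and by 0.060 and -0.10 under siKeap1-2.

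Complex IV, cytochrome c oxidase, held both calls. Cox7a1 ran from 6.75 to 8.25 in siControl (median 7.87), 6.39 to 7.07 in siKeap1-1 (median 6.80) and 6.09 to 7.26 in siKeap1-2 (median 7.05). The overlap came from siControl replicate 2 at 6.75, as the other 7 controls lay at 7.30 or above and thus above every siKeap1-1 and siKeap1-2 array. Cox7a1 fell by 0.93 with siKeap1-1, or 1.91-fold (standard error 0.18, limma adjusted p = 0.00157), and by 0.78 with siKeap1-2, or 1.72-fold (standard error 0.18, limma adjusted p = 0.00988). Without siControl replicate 2 the differences were -1.07 and -0.92. The siRNAs differed from each other by -0.15 for Cox7a1 (95% interval -0.52 to 0.22, limma adjusted p = 0.854).

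Cox7c ran from 8.81 to 9.53 in siControl (median 9.20), 8.52 to 9.15 in siKeap1-1 (median 8.75) and 8.43 to 9.37 in siKeap1-2 (median 8.91), and the 3 groups overlapped. It fell by 0.41 with siKeap1-1 (standard error 0.13, limma adjusted p = 0.0485), a call that was lost on leaving out any of 16 of the 24 single arrays. The difference with siKeap1-2 was -0.36 and did not pass (limma adjusted p = 0.0972). The siRNAs themselves differed by -0.043 (95% interval -0.31 to 0.22). The probe set that stands for Cox7c has a mean signal of 8.95. The other complex IV members that are not isoforms of other tissues had means from 11.77 (Cox8a) to 14.66 (Cox5b). The other single-gene probe set of Cox7c is dimmer still (mean signal 4.60). It lay at -0.90 with siKeap1-1 and -0.97 with siKeap1-2 (limma adjusted p = 0.00537 and 0.00438). Which Cox7c transcripts either probe set reads was not tested.

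**Figure D2:**
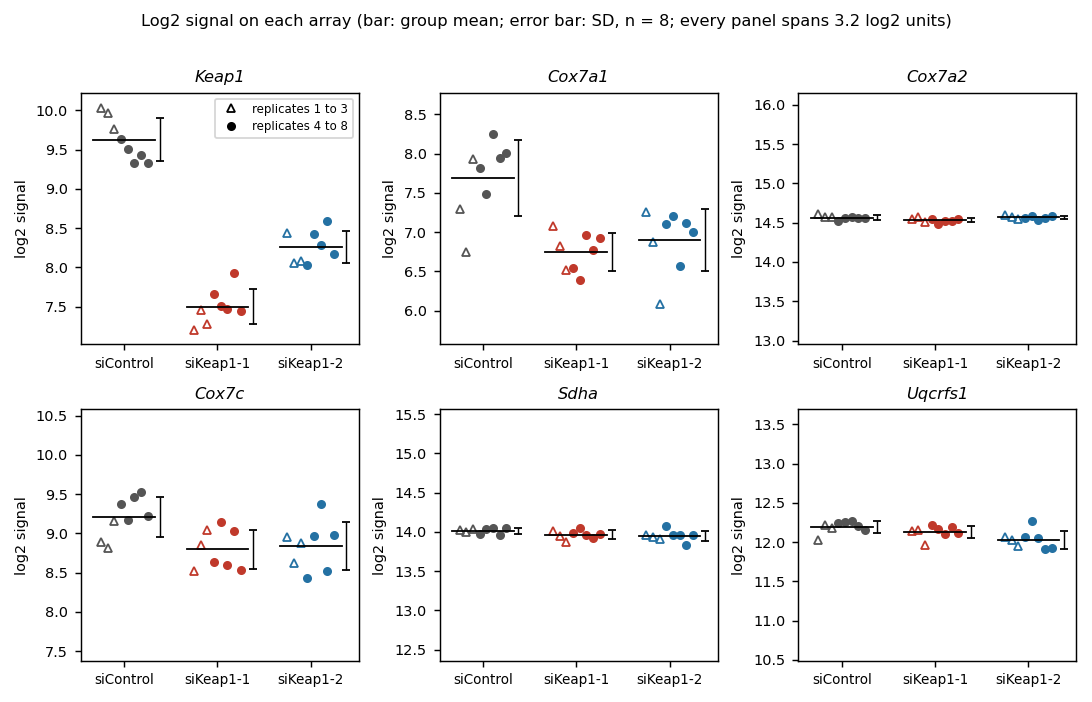
Log2 signal of Keap1 and 5 respiratory chain genes on each of the 24 arrays, with triangles for replicates 1 to 3 and dots for replicates 4 to 8 of each group, the group mean as a bar and the SD as an error bar (n = 8). All panels span the same range, so the drop of Cox7a1 can be set against the narrow bands of Cox7a2 and Sdha; siControl replicate 2 lies at 6.75 in the Cox7a1 panel, within the siRNA groups.

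Whether either gene passed depended on which controls or covariate were used, and the precision differed between these settings. In siControl replicates 1 to 3, Cox7a1 had a mean of 7.33 and Cox7c of 8.95, and in replicates 4 to 8, with the low 18S signal, the means were 7.90 and 9.35. Against replicates 1 to 3 alone, Cox7a1 lay at -0.58 with siKeap1-1 (limma adjusted p = 0.195) and -0.43 with siKeap1-2 (limma adjusted p = 0.50). With only 3 controls, the 95% intervals were -1.06 to -0.094 and -0.91 to 0.056 (standard error 0.23, against 0.18 with all controls). Against replicates 4 to 8 alone Cox7a1 fell by 1.15 and 1.00 (limma adjusted p = 1.09e-04 and 5.06e-04). With the 18S signal as a covariate the differences were -0.51 and -0.38 (limma adjusted p = 0.25 and 0.617). Their 95% intervals were -0.98 to -0.053 and -0.83 to 0.070 (standard error 0.22 for both). With the excess of the Gapdh 3′ signal over the 5′ signal as a covariate, Cox7a1 lay at -0.85 and -0.70 (limma adjusted p = 0.0175 and 0.104). A larger standard error alone can cost a call, so a lost call does not show a lost difference. Cox7c kept its sign in these settings. It passed against replicates 4 to 8 alone, at -0.56 with siKeap1-1 and -0.51 with siKeap1-2 (limma adjusted p = 0.0123 and 0.0212). It did not pass against replicates 1 to 3 (-0.16 and -0.12), with the 18S covariate (-0.21 and -0.17) or with the Gapdh covariate (-0.20 and -0.16). The part of the 18S difference in both genes was not tested.

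**Figure D3:**
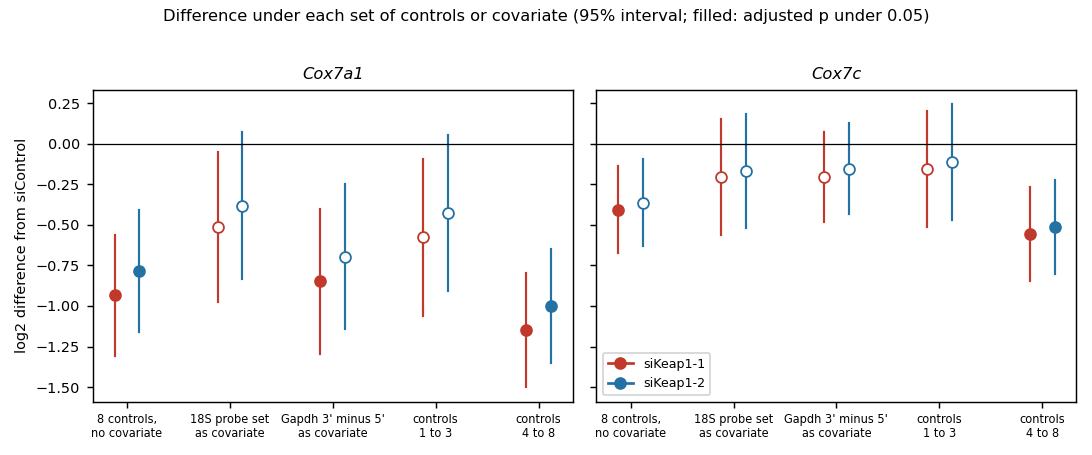
Log2 difference from siControl of Cox7a1 (left) and Cox7c (right) with its 95% interval, with all 8 controls, with a technical covariate, or with part of the controls (red, siKeap1-1; blue, siKeap1-2; filled points have an adjusted p under 0.05). All points lie below 0, and with controls 1 to 3 or the 18S covariate no point is filled.

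Cox7a1 is known from muscle and brown fat, so markers of both tissues were read beside it. Of 6 skeletal muscle markers 0 were called with either siRNA, and their summed level lay at 7.64 to 7.99 in siControl, 7.62 to 7.94 in siKeap1-1 and 7.61 to 7.88 in siKeap1-2. Of 4 brown fat and adipocyte markers 0 were called, with summed levels from 10.59 to 11.04, from 10.36 to 11.42 and from 10.31 to 11.16. Ucp1, the uncoupling protein of brown fat, had group means of 4.82, 4.82 and 4.86. The ranges of both lists overlapped between the groups, as did those of Cox7a1 with all 8 controls. The part of these tissues in the Cox7a1 values was not tested.

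The remaining isoforms of complex IV gave no call. Cox7a2, the form of subunit 7a that the liver uses, stayed between 14.49 and 14.61 on all arrays and differed by -0.034 and 0.0031 (standard error 0.037). Cox4i1 stayed between 13.62 and 13.82 and its hypoxia and lung form Cox4i2 between 5.00 and 5.63. Cox6a1 and Cox6b1, the widely expressed forms, differed by -0.0030 and 0.019 under siKeap1-1, and by -0.0022 and -0.0025 under siKeap1-2. Cox6a2, the muscle form, differed by 0.14 and 0.18 (limma adjusted p = 0.266 and 0.136). Cox6b2, the testis form, had the largest differences without a call, -0.36 and -0.37 (standard error 0.21, limma adjusted p = 0.314 and 0.318), and ran from 5.96 to 7.18 in siControl, 5.70 to 6.94 in siKeap1-1 and 5.79 to 7.00 in siKeap1-2. Cox8a differed by 0.080 and 0.13 and its muscle form Cox8b by 0.20 and 0.072.

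How closely the differences were measured was read from the intervals. The 95% interval lay within a fold of 1.25 in either direction (0.32 on the log2 scale) for 60 of 65 members with siKeap1-1 (92.3%) and 58 with siKeap1-2 (89.2%), against 54% and 54.8% of all genes. Those outside were Cox6b2, Cox7a1, Cox7c, Cox8b and Ndufb4 with siKeap1-1, and also Cox6a2 and Cox7b2 with siKeap1-2. The members inside include dim probe sets, such as Cox4i2 (mean signal 5.37) and, with siKeap1-1, Cox7b2 (2.95). The median signal of an array lay between 5.84 and 5.96. A narrow interval at such a signal does not show that a change of the gene would be seen. The median size of the difference, without sign, was 0.052 and 0.050 for the members and 0.11 and 0.10 for all genes. The signed median was 0.016 and 0.0033 for the members and 0.014 and -0.0073 for all genes.

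Narrow intervals were more common among bright genes than among all genes, but calls were not rarer there. With a mean signal of 11.5 or more stood 54 members, of which 0 were called and 54 had their interval within a fold of 1.25 with each siRNA. Of the 2405 genes with such a signal, 14% were called with siKeap1-1 and 7.36% with siKeap1-2, and 74% and 77.3% had such an interval. The median size of the difference was 0.088 and 0.076 for these genes, and 0.047 and 0.040 for the 54 members. The brightest members approach the top of the scale, as the highest value on an array lay between 15.12 and 15.21 and the highest mean of a member was 14.66. Whether changes of the brightest members are compressed there was not tested.

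The members varied little between mice. The SD within groups had a median of 0.082 over the 57 members that are not isoforms of other tissues, against 0.19 for the 8 isoforms, 0.19 for all genes and 0.12 for genes with a mean signal of 11.5 or more. What variation there was ran across complexes. After the group means were removed, the correlation between a pair of these 57 genes over the 24 arrays had a median r of 0.32, with 0.34 for pairs of the same complex and 0.30 for pairs of different complexes, which describes arrays that share their normalization. The median shift of the 57 genes from their 24-array means lay between -0.073 and 0.050 on each array. It was lowest on siControl replicate 2 (-0.073), siKeap1-2 replicate 3 (-0.067), siKeap1-1 replicate 2 (-0.066) and siKeap1-1 replicate 3 (-0.061). By group it had a mean of -0.0085 with siControl (SD 0.034, n = 8), 0.0095 with siKeap1-1 (SD 0.047) and -0.0042 with siKeap1-2 (SD 0.036), so that the groups lay closer together than the mice within them.

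**Figure D4:**
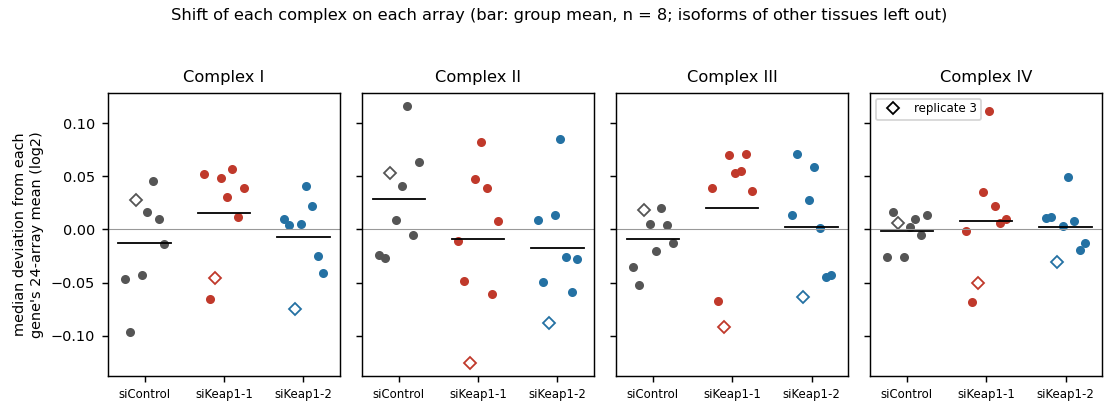
Median deviation of the genes of each complex from their 24-array means on each array (log2 scale; isoforms of other tissues left out), by group, with the group mean as a bar (n = 8) and replicate 3 as an open diamond. The deviations of the 4 complexes stay between -0.13 and 0.12, the groups overlap in every panel, and replicate 3 of siKeap1-1 and of siKeap1-2 lies low in all 4.

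Further probe sets of the same genes gave further calls. Of the 65 genes, 39 have more than a single such probe set, and 73 probe sets are not the brightest of their gene. With siKeap1-1, 2 of the 73 were called higher and 10 lower, where 9.46% of all such probe sets were called. With siKeap1-2, 5 of the 73 were called, all lower, where 7.14% were called, a share close to that of the 73. The 2 that rose, by 0.23 for Ndufa12 and 0.19 for Uqcr10 (limma adjusted p = 0.00938 and 0.0241), are bright, and the brightest probe sets of these genes lay at 0.10 and 0.083 and did not pass. The 10 that fell all have a mean signal under 10 and belong to Cox7c, Cox8a, Ndufab1 (3 probe sets), Ndufb2, Ndufb9, Ndufs4 (2 probe sets) and Uqcrq. The limit of 10 was chosen after the values were seen.

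Under that limit, 10 of the 25 dim probe sets were lower with siKeap1-1 (40%) and 5 with siKeap1-2 (20%). Of 15169 dim probe sets of any gene that are not its brightest, 3.58% and 2.56% were lower. The limit was picked from these same values, so these shares describe the probe sets and are not a test. Several of the 10 belong to the same gene. Ndufab1, for the acyl carrier protein of complex I, shows the contrast. Its brightest probe set, with a mean of 12.78, differed by 0.052 and -0.029, while a dim one with a mean of 6.22 fell by 0.67 and 0.46 (limma adjusted p = 6.11e-04 and 0.019). Uqcrq, a small subunit of complex III, differed by 0.0092 and 0.037 at its brightest and fell by 0.52 and 0.42 at a dim probe set with a mean of 7.03 (limma adjusted p = 0.00873 and 0.0422). Against siControl replicates 1 to 3 alone, or with the 18S covariate, 0 of the 73 were called with either siRNA. The share of all such probe sets called in these settings was not counted. The 10 dim probe sets lower with siKeap1-1 were all still below 0 in both settings, at -0.53 to -0.17 against replicates 1 to 3, where 4 of them differed by as much as with all controls or more, and at -0.60 to -0.11 with the covariate, where 1 did. Which transcripts the dim probe sets read was not tested.

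**Figure D5:**
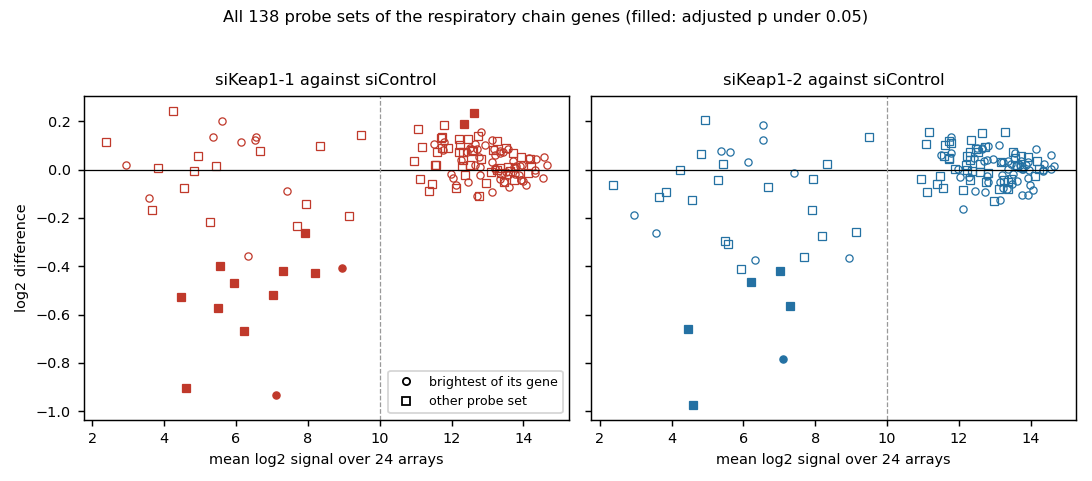
Log2 difference from siControl of all 138 single-gene probe sets of the 65 genes against their mean log2 signal over 24 arrays, for siKeap1-1 (left) and siKeap1-2 (right); circles are the brightest of a gene, squares the others, and filled symbols have an adjusted p under 0.05. The filled symbols below 0 all lie left of the dashed line at a signal of 10, and the cloud to its right stays close to 0.

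Genes that work beside the chain were read from lists, beside the 9.49% and 6.6% of all genes called with siKeap1-1 and siKeap1-2. ATP synthase, which uses the proton gradient, had 0 of 17 subunit genes called with either siRNA. Of 19 assembly factors of complex IV, 3 rose with siKeap1-1 (15.8%) and 1 with siKeap1-2 (5.26%). Cox19, for a copper-related assembly factor, rose by 0.42 and 0.34 (standard error 0.066, limma adjusted p = 1.71e-04 and 0.00247), and Coa5 and Cmc1 rose by 0.19 and 0.20 with siKeap1-1. Of 6 assembly factors of complex III, Uqcc2 rose by 0.39 with siKeap1-1 and Uqcc3 by 0.37 with siKeap1-2. Of 16 assembly factors of complex I, 0 were called with siKeap1-1, and Tmem70 fell by 0.20 with siKeap1-2. Of 4 for complex II, Sdhaf4 rose by 0.21 with siKeap1-1. In lists this short a single gene moves the share called by several percentage points.

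Among 21 genes for electron carriers and for enzymes that feed ubiquinone, 9.52% and 19% were called, against 9.49% and 6.6% of all genes. Only 2 of the 21, Coq7 and Coq8b of ubiquinone synthesis, were called higher, with both siRNAs. The median difference of the list was -0.022 and -0.028, so the list as a whole did not rise. Coq7, a hydroxylase, rose by 0.55 and 0.47 (standard error 0.077, limma adjusted p = 5.0e-05 and 5.45e-04). Coq8b rose by 0.63 and 0.78 (standard error 0.13, limma adjusted p = 0.00232 and 5.2e-04). Gpd2, the mitochondrial glycerol phosphate dehydrogenase, and Coq10a, for a ubiquinone-binding protein, fell by 0.56 and 0.41 with siKeap1-2 and lay at -0.50 and -0.29 with siKeap1-1 (limma adjusted p = 0.0536 and 0.0576). A list of 16 genes covered the tricarboxylic acid cycle and the pyruvate dehydrogenase complex. In it Idh3a, for the catalytic subunit of isocitrate dehydrogenase, fell by 0.33 and 0.41 and Fh1, fumarase, by 0.26 and 0.21. Idh3g fell by 0.19 and Pdhx, of the pyruvate dehydrogenase complex, by 0.36 with siKeap1-2. These calls make 12.5% and 25% of that list. Of 17 regulators of mitochondrial biogenesis, Ppargc1a fell by 0.56 with siKeap1-1 (limma adjusted p = 0.009) and lay at -0.36 with siKeap1-2 (limma adjusted p = 0.113), Gabpb2, for a GABP subunit, fell by 0.34 and 0.31, and Tfb2m, a mitochondrial transcription factor, rose by 0.36 with siKeap1-1 (17.6% and 5.88% of the list called).

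These calls too were read in the 4 settings with other controls or a covariate. Coq7 passed in all 4 with either siRNA, at 0.51 to 0.61 with siKeap1-1 and 0.43 to 0.53 with siKeap1-2. Coq8b passed in 3 of 4 with either siRNA, and not with the 18S covariate (0.53 and 0.68, limma adjusted p = 0.11 and 0.0725). Cox19 passed in 4 of 4 with siKeap1-1 and in 2 of 4 with siKeap1-2, where it lay at 0.30 with the 18S covariate and 0.28 against siControl replicates 1 to 3 alone (limma adjusted p = 0.18 and 0.223). Of the genes called with a single siRNA, read with that siRNA, Uqcc2 passed in 3 of 4 and Cmc1 in 2 of 4. Coa5, Sdhaf4, Tmem70, Gpd2 and Coq10a passed in 1 of 4, and Uqcc3 in 0 of 4, at 0.24 to 0.43.

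With siControl replicates 1 to 3 alone and with the 18S covariate, 0 of 16 genes of the tricarboxylic acid cycle and pyruvate dehydrogenase were called with either siRNA. The same held for 0 of 17 regulators of biogenesis. The share of all genes called in these settings was not counted, so these counts do not set the lists apart from other genes. Several differences stayed near their size with all controls. With the 18S covariate Idh3a lay at -0.38 and -0.46 (limma adjusted p = 0.0756 and 0.0578), Fh1 at -0.26 and -0.21 (limma adjusted p = 0.135 and 0.432), and Ppargc1a with siKeap1-1 at -0.60 (limma adjusted p = 0.0871). Against replicates 1 to 3 alone Ppargc1a lay at -0.54 (limma adjusted p = 0.153). Others were smaller with the 18S covariate. Gabpb2 lay at -0.20 and -0.18, Tfb2m with siKeap1-1 at 0.020, and Idh3g and Pdhx with siKeap1-2 at -0.086 and -0.27. Against replicates 1 to 3 alone, Tfb2m with siKeap1-1 lay at 0.16, and Idh3g and Pdhx with siKeap1-2 at -0.10 and -0.22.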

How the data were processed

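Whole liver RNA of 24 mice (8 per group) was measured on Affymetrix mouse expression arrays. The deposited values are log2 signals that the authors made with RMA (version not given in the sources used here), which corrects the background, brings all arrays to a common distribution and sums up the probes of each probe set. Of 45101 probe sets, 64 manufacturer controls were left out of the tests. The platform annotation names a single gene for 34945 of the rest, several genes for 932 and none for 9160. The brightest single-gene probe set over all arrays stood for each gene.

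Groups were compared with lmFit and eBayes of limma 3.58.1 under R 4.3.3, with the 3 groups in 1 model and Benjamini-Hochberg adjustment over 45037 probe sets. The procedure was tested on simulated data. The study's two-way ANOVA was not fitted, because the labels do not give the feeding state. Keap1 and the 18S control probe set were tested by exact permutation over 12870 splits. The number of arrays limits the precision. No pair of arrays in a group was identical (the SD of their difference was at least 0.264).

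Members and lists were chosen with earlier results of these data known. Named members are those called, the subunits of complex II, the subunits that carry electrons, isoform pairs, the largest change without a call, and genes with another probe set called. Ndufb3, Ndufb4, Ndufa6, Uqcr11, Uqcrc1 and Uqcrc2 were named after their values were seen. Alternatives covered arrays, scaling, probe sets, covariates, replicate block and thresholds, and those on the other probe sets and the lists were added after seeing the data. Promoters came from RefSeq (GRCm38.p6). Plots were made with Python 3.11.15 and matplotlib 3.10.9.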

Additional observations from a re-analysis of the deposited data

Results flagged for a closer look

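In 10 of 93 sets of 8 arrays (the 31 named members in 3 groups), the highest or lowest array stood apart from the other 7 by Dixon's criterion at 95%, which chance gives in about 1 in 20 such sets. siKeap1-1 replicate 3 was the low array for Ndufa4l2 (7.03), Ndufs4 (11.71), Ndufv2 (12.59) and Uqcrfs1 (11.96). siKeap1-2 replicate 3 was the low array for Ndufa12 (12.80), Ndufb2 (12.15) and Sdhb (12.84), and siKeap1-2 replicate 7 for Cox6a1 (14.25). Uqcrfs1 was low on siControl replicate 1 (12.03) and high on siKeap1-2 replicate 5 (12.27). Outside the comparisons of genes, the 18S ribosomal RNA control was higher than in siControl by 1.23 with siKeap1-1 and by 1.18 with siKeap1-2.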

How the results depend on the processing

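The fall of Keap1 passed in every alternative run, and the count between the siRNAs stayed at 0. The median of the members stayed near 0 and changed sign in some: its lowest and highest values were -0.00046 and 0.040 (siKeap1-1), -0.0073 and 0.021 (siKeap1-2). The count of members called, 2 with siKeap1-1 and 1 with siKeap1-2, became 1 to 3 and 1 to 2 when single replicates were left out. With a gene's probe sets averaged it was 6 and 4, with the 18S covariate 0 and 0, with the Gapdh covariate 1 and 0, with siControl replicates 1 to 3 alone 0 and 0, at a fold over 2 with unadjusted p under 0.01 it was 0 and 0, and at an unadjusted p under 0.05 it was 6 and 10. With siKeap1-1 it was 1 at an adjusted p under 0.01, and with siKeap1-2 it was 2 without dim probe sets, 3 with a trended robust fit, 2 with the first residual component (16.9% of the residual variance) and 3 with siControl replicates 4 to 8 alone. With that average, Ndufab1 and Uqcrq turned with siKeap1-1 to -0.29 and -0.17. The cause was not tested. Replicate numbers were not taken as pairs. Deviations of arrays with the same number correlated at -0.23 to 0.35 (median 0.10, over 0.1 in 12 of 24 pairs). Arrays with different numbers were not compared, so a pairing was not tested. With the replicate block, 1 member was called with siKeap1-1, as Cox7c lay at an adjusted p of 0.0595. Cox7a1 passed without any single replicate, at -1.07 to -0.85 with siKeap1-1 and -0.92 to -0.67 with siKeap1-2. Cox7c with siKeap1-1 lost its call without siKeap1-1 replicate 1, 2, 4, 6 or 8, siKeap1-2 replicate 1, 2, 3, 5 or 8, or siControl replicate 3, 4, 5, 6, 7 or 8 (adjusted p up to 0.10), and with siKeap1-2 it gained one without siKeap1-2 replicate 6 or siControl replicate 2. Cox6a2 gained one with siKeap1-2 without its replicate 3 (0.23, adjusted p = 0.0356). Of the other probe sets, 12 and 5 were called, and 0 and 0 with the 18S covariate or siControl replicates 1 to 3 alone, and 7 and 0 with the Gapdh covariate. The share of all genes called with these covariates or with part of the controls was not counted. Probe sets near the top or the floor of the signal limit what can be seen.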
